A study of Mus with 2 samples.

Results

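De novo lipogenesis is the pathway by which cells build fatty acids from the carbon of glucose and other fuels, and 10 of its enzymes and regulators were followed here, out of 32285 genes listed in the files. The genes were taken by name for their place in the pathway, with earlier results of these data known. In the cytosol, ATP citrate lyase (*Acly*) cleaves citrate to acetyl-CoA, the acetyl-CoA carboxylases (*Acaca* and *Acacb*) make malonyl-CoA, and fatty acid synthase (*Fasn*) joins these units into palmitate. Elongases (*Elovl5* and *Elovl6*) and a desaturase (*Scd1*) then modify the chain, malic enzyme (*Me1*) supplies NADPH, and the transcription factors SREBP-1 (*Srebf1*) and ChREBP (*Mlxipl*) turn the pathway on in response to insulin and glucose. Brown fat is known for a high capacity for this pathway beside its capacity to burn fat for heat.

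Single-nucleus RNA sequencing (snRNA-seq) had been performed on frozen interscapular brown adipose tissue (iBAT) of C57BL/6 mice on normal chow, aged 8 weeks. One library came from *Wtap* flox/flox mice and is called the control library below, and the other was labelled *Wtap*-BKO, from mice that carry the same *Wtap* flox/flox alleles together with UCP1-iCre, a Cre recombinase expressed under the control of *Ucp1* and so in brown adipocytes. WTAP is a subunit of the complex that writes the RNA modification m6A. Each library was a pool of 4 mice. Neither genotype had a second library, so nothing was tested between them. Every interval below is a 95% interval for counting error only.

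The control library held 9494 nuclei with a median of 954 unique molecular identifiers (UMIs, counted RNA molecules), and the library labelled *Wtap*-BKO held 8772 nuclei with a median of 1306. The libraries shared 20 barcodes. Nuclei fell into 13 clusters, formed without the lipogenic genes. By their markers, 5 clusters were adipocyte-like, with 6709 and 4770 nuclei (the control library is given first throughout), and the others included endothelial-, pericyte-, fibroblast-, macrophage- and T-cell-like nuclei. Clusters 6 and 11 stayed unnamed. *Wtap* itself had 379 and 390 UMIs in adipocyte-like nuclei, a log2 difference (the log2 of the ratio of their levels, the library labelled *Wtap*-BKO to control) of -0.08 (-0.29 to 0.13), so the labels could not be checked by the gene they name, and directions rest on the labels. Mitochondrially encoded UMIs were more frequent in adipocyte-like nuclei of the library labelled *Wtap*-BKO, with a median of 9.63% per nucleus against 2.95%.

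In adipocyte-like nuclei, 8 of the 10 lipogenic genes were at least 1.5-fold higher in the library labelled *Wtap*-BKO, 5 of them at least 2-fold, and none was at least 1.5-fold lower. *Fasn* stood highest in ratio, at 4.68-fold, while *Elovl6* and *Mlxipl* were slightly lower over all adipocyte-like nuclei, a direction that neither kept in every band of mitochondrial UMIs given below. The background was wide, because 24.9% of the 14025 genes with at least 20 UMIs were 1.5-fold higher and 12.6% were 1.5-fold lower. The median log2 difference was 0.92 over the 10 genes and 0.07 over all genes. The count of 8 fell to 5 without adipocyte-like cluster 8, described below, as *Acly*, *Elovl5* and *Me1* then lay under 1.5-fold. Levels are given as counts per 1000000 UMIs of a class (CPM), which are not per length and so are not compared between genes.

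The enzymes of chain synthesis are described in the order of the pathway. *Acly* (chromosome 11, 100476352 to 100528000, in RefSeq's annotation of the mouse build GRCm38, which is mm10) had 1301 and 2199 UMIs, or a CPM of 172 and 267, and a log2 difference of 0.63 (0.53 to 0.73). *Acaca* (chromosome 11, 84129635 to 84401651), the cytosolic carboxylase that commits acetyl-CoA to synthesis, had 5019 and 15128 UMIs, or a CPM of 663 and 1835, which is 2.77-fold (log2 difference 1.47, 1.42 to 1.51). *Acacb* (chromosome 5, 114146321 to 114250761) encodes the carboxylase at the mitochondrial surface, whose malonyl-CoA restrains fatty acid oxidation. Its CPM was 2554 and 4465, a log2 difference of 0.81 (0.78 to 0.83). *Fasn* (chromosome 11, 120805958 to 120825166) had 1718 and 8755 UMIs, or a CPM of 227 and 1062, a log2 difference of 2.23 (2.15 to 2.30). All of these synthesis genes were thus higher in the library labelled *Wtap*-BKO, each with an interval above 0.

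The genes that modify the chain did not move alike. *Scd1* (chromosome 19, 44394450 to 44407709), which places a double bond in stearoyl-CoA and palmitoyl-CoA, had 7234 and 25981 UMIs, or a CPM of 956 and 3151, which is 3.30-fold (log2 difference 1.72, 1.68 to 1.76). *Elovl5* (chromosome 9, 77917365 to 77984519), an elongase of polyunsaturated chains, was sparse, with 335 and 554 UMIs and a log2 difference of 0.60 (0.40 to 0.80). *Elovl6* (chromosome 3, 129532386 to 129638495), the elongase that takes palmitate to stearate, had a CPM of 567 and 497, a log2 difference of -0.19 (-0.25 to -0.13). Its direction turned to 0.13 (0.03 to 0.22) once nuclei above 5% mitochondrial UMIs were dropped. The desaturase was therefore higher by far, and the elongase of the same saturated chains was close to equal between the libraries.

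For NADPH supply, *Me1* (chromosome 9, 86581363 to 86695914) had 305 and 680 UMIs, or a CPM of 40.3 and 82.5, a log2 difference of 1.03 (0.84 to 1.23). The 2 transcription factors went apart. *Srebf1* (chromosome 11, 60199084 to 60224186) had 683 and 2068 UMIs, or a CPM of 90.3 and 251, which is 2.78-fold (log2 difference 1.47, 1.35 to 1.60). *Mlxipl* (chromosome 5, 135089890 to 135139768) had 10060 and 9463 UMIs, or a CPM of 1329.7 and 1148, a log2 difference of -0.21 (-0.25 to -0.17). Counts per gene do not separate the SREBP-1a and SREBP-1c transcripts of *Srebf1* or the ChREBP isoforms of *Mlxipl*.

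**Figure D1:**
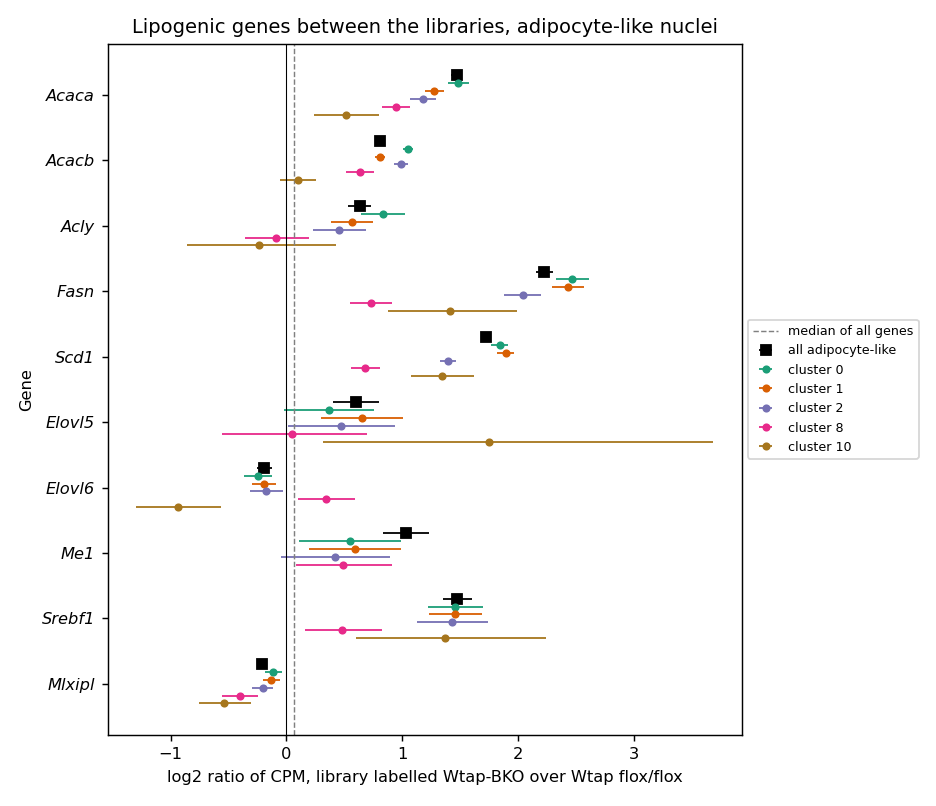
Log2 difference (log2 of the ratio of CPM) of each lipogenic gene, the library labelled *Wtap*-BKO over control, with exact 95% counting intervals, in all adipocyte-like nuclei (black squares) and in each adipocyte-like cluster (circles). The dashed line is the median of all genes, 0.07, and *Me1* in cluster 10 is not drawn because the control library had 1 UMI there. *Fasn* lies at 2.23 over all adipocyte-like nuclei and at 0.73 in cluster 8, and *Elovl6* and *Mlxipl* lie below 0 over all adipocyte-like nuclei.

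Adipocyte markers moved in both directions between the same nuclei. Of 12 markers, 6 were higher in the library labelled *Wtap*-BKO, from -1.09 for the lipid droplet protein gene *Plin5* to 1.17 for *Plin4*, with a median log2 difference of 0.13 and a summed CPM of 12403 and 13442. Markers of white-type adipocytes, by contrast, were 7 of 7 higher, with a log2 difference from 1.29 for *Npr3* to 3.29 for *Nnat* and a summed CPM of 301 and 990.4. All 7 were at least 1.5-fold higher, as were 24.9% of all genes. *Slc7a10*, *Cyp2e1* and *Trhde* among them also led cluster 8, which held 3.03% and 10.3% of adipocyte-like nuclei. Without cluster 8 all 7 were still higher, from 0.27 to 3.08, given without intervals. *Trhde* was sparse there, as in cluster 1, where it was lower on 3 and 1 UMIs, at -1.02 (-6.74 to 2.62). The part of these markers in the lipogenic values was not tested.

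Within the adipocyte-like nuclei, the lipogenic genes were concentrated in cluster 8, whose leading genes were *Slc7a10*, a neutral amino acid transporter used as a surface marker of white adipocytes, *Cyp2e1* and *Trhde*. Cluster 8 held 203 and 490 nuclei. Against the other adipocyte-like nuclei of its own library, 7 of the 10 genes were at least 1.5-fold higher in cluster 8 in the control library, where 25.8% of all genes were, and 7 of 10 in the library labelled *Wtap*-BKO, where 15.3% of all genes were. The median log2 difference of the 10 genes was 1.48 and 0.81, against 0.09 and -0.03 over all genes. The lipogenic genes had no part in forming the clusters, but genes that vary with them did, so these ratios are a description.

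*Me1* set cluster 8 apart most in both libraries, with a CPM of 209 and 293 in cluster 8 and log2 differences over the other adipocyte-like nuclei of 2.63 (2.19 to 3.04) and 2.55 (2.33 to 2.77). *Acaca* had a CPM of 2353 and 4524 there, with log2 differences of 1.97 (1.85 to 2.09) and 1.67 (1.62 to 1.72). *Acly* followed at 1.68 (1.41 to 1.93) and 1.03 (0.89 to 1.18), and *Srebf1* at 1.997 (1.66 to 2.32) and 1.05 (0.90 to 1.19). For these genes cluster 8 was the highest of the 5 adipocyte-like clusters in each library.

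*Fasn* and *Scd1* stood apart from the other adipocyte-like nuclei less in the library labelled *Wtap*-BKO than in control, as did *Acaca*, *Acly* and *Srebf1* above. *Fasn*, also highest in cluster 8 in both, stood 2.42 (2.23 to 2.60) above the other adipocyte-like nuclei in the control library and 0.86 (0.78 to 0.93) in the library labelled *Wtap*-BKO. *Scd1* stood at 1.27 (1.15 to 1.39) and 0.19 (0.14 to 0.24). In the library labelled *Wtap*-BKO, the highest *Scd1* CPM, 3956, was in cluster 2, ahead of 3522 in cluster 8, and mitochondrially encoded genes made up 5 of the 10 leading genes of cluster 2. *Elovl6* was 0.09 (-0.14 to 0.31) and 0.75 (0.63 to 0.86) in cluster 8 against the others, *Elovl5* 1.26 (0.65 to 1.82) and 0.76 (0.45 to 1.06), and *Mlxipl* 0.29 (0.15 to 0.42) and 0.10 (0.02 to 0.18). *Acacb* alone among the 10 was lower in cluster 8 in both libraries, at -0.11 (-0.23 to -0.00) and -0.32 (-0.37 to -0.28).

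**Figure D2:**
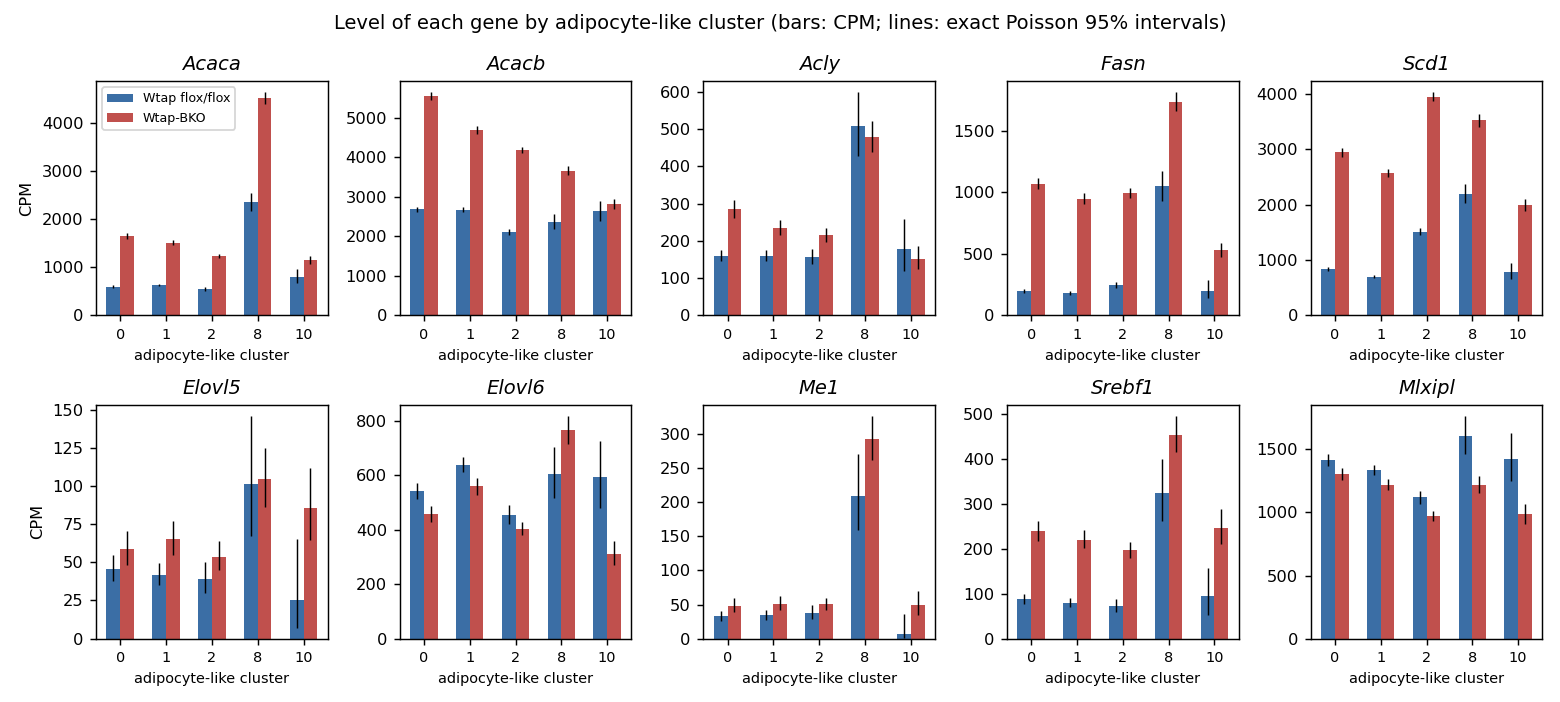
CPM of each lipogenic gene in the adipocyte-like clusters 0, 1, 2, 8 and 10 of the control library (*Wtap* flox/flox, blue) and the library labelled *Wtap*-BKO (red), with exact Poisson 95% intervals. Each panel has its own axis from 0. *Acaca* reaches 2353 and 4524 in cluster 8, while *Scd1* in the library labelled *Wtap*-BKO is at 3956 in cluster 2 and 3522 in cluster 8.

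The ratio between the libraries was smaller inside cluster 8 than over all adipocyte-like nuclei for most of the genes. There, the log2 difference was 0.94 (0.82 to 1.06) for *Acaca*, 0.73 (0.55 to 0.91) for *Fasn* and 0.68 (0.56 to 0.81) for *Scd1*. *Acly* was at -0.09 (-0.36 to 0.19) and *Elovl5* at 0.05 (-0.56 to 0.70), so a difference of these genes between the libraries was not detectable in cluster 8 at this depth. *Elovl6* was higher there, at 0.34 (0.10 to 0.59), opposite to its -0.19 over all adipocyte-like nuclei. In clusters 0 and 1, *Fasn* had log2 differences of 2.47 (2.32 to 2.61) and 2.43 (2.29 to 2.57), and *Srebf1* 1.45 (1.22 to 1.69) and 1.46 (1.23 to 1.68). *Me1* was at 0.55 (0.10 to 0.99) and 0.59 (0.19 to 0.99) in the same clusters, below its 1.03 over all adipocyte-like nuclei, and it was 0.56 (0.32 to 0.80) without cluster 8. Cluster 2 gave 2.04 (1.88 to 2.20) for *Fasn* and 0.42 (-0.05 to 0.90) for *Me1*, the latter spanning 0. *Acaca* without cluster 8 was at 1.24 (1.19 to 1.30).

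Cluster 10, whose leading genes included the interferon-responsive genes *Gbp6* and *Iigp1*, lay at the other end in the library labelled *Wtap*-BKO. Of the 10 genes, 9 were below the other adipocyte-like nuclei there, with a median log2 difference of -0.72 against -0.02 over all genes. In cluster 2 of that library, too, only 1 of the 10 was above the others, with a median of -0.42 against -0.28 over all genes. *Fasn* had a CPM of 526 and a log2 difference of -1.07 (-1.23 to -0.92) against the others, *Acaca* of -0.74 (-0.85 to -0.63), and *Srebf1* of -0.03 (-0.27 to 0.21). In the control library, cluster 10 held 126 nuclei and the median was 0.05 against 0.19 over all genes, with *Fasn* at -0.20 (-0.77 to 0.31).

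Because the libraries differed in mitochondrial UMIs, adipocyte-like nuclei were also compared within bands of mitochondrial share. Among nuclei with up to 5%, numbering 5182 and 1055, the log2 difference was 1.99 (1.93 to 2.05) for *Acaca*, 2.45 (2.35 to 2.55) for *Fasn*, 1.61 (1.55 to 1.67) for *Scd1*, 1.74 (1.47 to 2.002) for *Me1* and 1.82 (1.65 to 1.99) for *Srebf1*. Among nuclei with over 10%, numbering 588 and 2294, it was 1.41 (1.25 to 1.56) for *Acaca*, 1.73 (1.53 to 1.94) for *Fasn*, 0.93 (0.85 to 1.01) for *Scd1*, 0.20 (-0.31 to 0.76) for *Me1* and 1.52 (1.11 to 1.96) for *Srebf1*. These 5 genes were thus higher in the library labelled *Wtap*-BKO in both bands, although for *Me1* the interval in the upper band spans 0. *Mlxipl* went from -0.07 (-0.13 to -0.00) in the lowest band to 0.17 (0.05 to 0.29) in the highest. *Elovl6* was at 0.13 (0.03 to 0.22) in the lowest band, -0.07 (-0.22 to 0.08) over 5 to 10% and 0.05 (-0.14 to 0.23) in the highest, so its lower level over all adipocyte-like nuclei was not seen in the lowest or the highest band. Levels also moved with the band inside a library, as *Scd1* went from a CPM of 793 through 1248 to 1947 in the control library while *Acaca* went from 683 through 643 to 524.

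**Figure D3:**
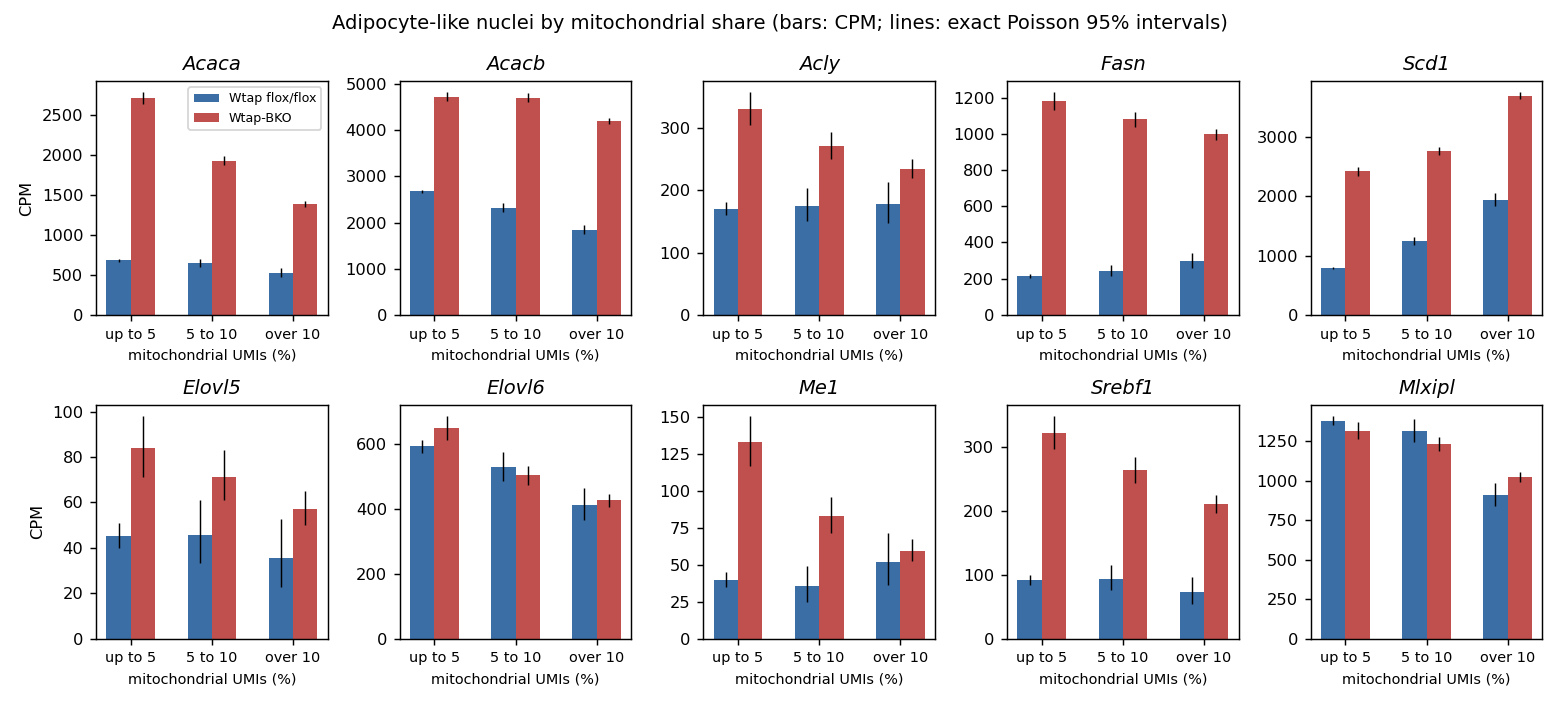
CPM of each lipogenic gene in adipocyte-like nuclei with up to 5%, over 5 to 10% and over 10% mitochondrial UMIs, in the control library (*Wtap* flox/flox, blue) and the library labelled *Wtap*-BKO (red), with exact Poisson 95% intervals and an axis from 0 in each panel. *Scd1* is higher in the higher bands in both libraries, from 793 to 1947 and from 2425 to 3702, and *Fasn* is higher in the library labelled *Wtap*-BKO in every band.

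How many nuclei held a UMI of a gene was compared after thinning each nucleus to 1000 UMIs, which left out 3424 and 938 adipocyte-like nuclei. Adipocyte-like nuclei had median depths of 991 and 1509 UMIs before thinning. Macrophage- and T-cell-like nuclei, with median depths of 910 and 1154 UMIs, served as the comparison, with 226 and 746 left out. *Fasn* was detected in 19.1% (17.7 to 20.4) and 56.4% (54.8 to 58.0) of adipocyte-like nuclei, and in 15.8% (10.9 to 22.0) and 30.1% (27.4 to 32.9) of macrophage- and T-cell-like nuclei. Unthinned, the *Fasn* shares were 19.3% and 68.5% of adipocyte-like nuclei. *Acaca* was detected in 41.6% (39.9 to 43.3) and 70.9% (69.4 to 72.3), against 26.8% (20.5 to 33.8) and 34.0% (31.2 to 36.8). *Srebf1* was detected in 8.61% (7.68 to 9.63) and 21.5% (20.2 to 22.8), against 6.01% (3.04 to 10.5) and 8.81% (7.21 to 10.6).

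In the control library, 4 of the 10 genes had a share in adipocyte-like nuclei above the interval of the share in macrophage- and T-cell-like nuclei, namely *Acaca*, *Acacb*, *Elovl6* and *Mlxipl*, where 5.12% of all genes tested and 12 of 12 adipocyte markers did. *Acly*, *Fasn*, *Scd1*, *Elovl5*, *Me1* and *Srebf1* did not, so a higher share in adipocyte-like nuclei was not detectable for them at this depth. The macrophage- and T-cell-like intervals rested on 183 thinned nuclei in the control library and 1113 in the library labelled *Wtap*-BKO, so they were wider in control. In the library labelled *Wtap*-BKO, 9 of 10 stood above the interval, against 22.5% of all genes and 12 of 12 markers, and *Elovl5* did not. In cluster 8, all 10 stood above it in both libraries, against 8.45% and 23.7% of all genes and 9 and 11 of 12 markers, with *Fasn* in 44.0% (35.5 to 52.9) and 66.6% (61.9 to 71.0) and *Me1* in 19.4% (13.1 to 27.1) and 21.3% (17.6 to 25.5) of thinned nuclei. These counts take the share itself. The interval of the cluster 8 share overlapped the comparison interval for *Elovl5* in both libraries and for *Elovl6* in control. Per 1000 UMIs, an adipocyte-like nucleus carried a median of 6 and 12 UMIs of the 10 genes together.

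**Figure D4:**
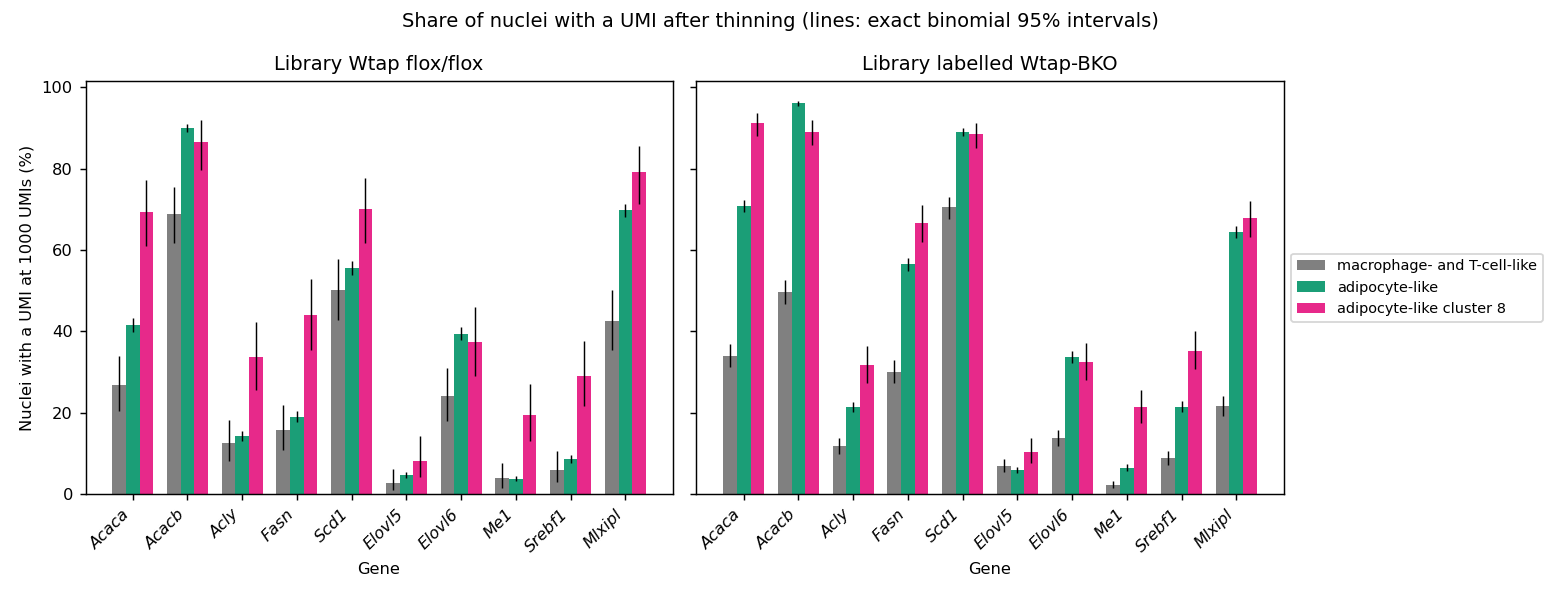
Share of nuclei with a UMI of each lipogenic gene after thinning to 1000 UMIs, in macrophage- and T-cell-like nuclei (grey), adipocyte-like nuclei (green) and adipocyte-like cluster 8 (pink) of each library, with exact binomial 95% intervals. *Fasn* in adipocyte-like nuclei of the control library, at 19.1%, lies inside the interval of the grey bar, 10.9 to 22.0, and at 56.4% it lies above the grey bar in the library labelled *Wtap*-BKO.

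Detection of *Acly* and *Me1* went with that of *Fasn* in single nuclei of cluster 8. In the control library, *Acly* was present in 57.6% (44.1 to 70.4) of 59 thinned cluster 8 nuclei with a *Fasn* UMI and in 14.7% (7.56 to 24.7) of 75 without one. *Acaca* was present in 91.5% (81.3 to 97.2) and 52.0% (40.2 to 63.7) of the same nuclei, and *Me1* in 33.9% (22.1 to 47.4) and 8.00% (2.99 to 16.6). In cluster 8 of the library labelled *Wtap*-BKO, *Acly* was in 38.0% (32.3 to 43.9) of 287 nuclei with *Fasn* and 19.4% (13.3 to 26.9) of 144 without. *Acaca* was in 93.4% (89.9 to 96.0) and 86.8% (80.2 to 91.9) there, with overlapping intervals, and the intervals for *Acacb* overlapped in cluster 8 of both libraries. So did those for *Elovl5*, *Elovl6*, *Srebf1* and *Mlxipl*, and those for *Scd1* in the library labelled *Wtap*-BKO only. *Srebf1* was in 34.8% of nuclei with *Fasn* and 36.1% without in cluster 8 of the latter library. Over all adipocyte-like nuclei, *Acly* was in 20.4% (17.4 to 23.8) of control nuclei with *Fasn* and 12.8% (11.6 to 14.2) of those without, and in 24.8% (23.0 to 26.7) and 16.9% (15.2 to 18.8) in the library labelled *Wtap*-BKO. In cluster 1 of the control library, the shares were 15.2% (11.3 to 19.98) and 12.9% (11.3 to 14.7), a gap within the counting error.

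Outside the adipocytes, the level of each gene was set against its level in adipocyte-like nuclei of the same library and beside the same share for the 12 adipocyte markers. *Scd1* and *Elovl5* lay above all 12 markers in the endothelial-, pericyte-, fibroblast-, macrophage- and T-cell-like nuclei of both libraries. Such a position was common among genes at large. In endothelial-like nuclei 2 and 2 of the 10 lipogenic genes lay above all markers, against 24.1% and 68.7% of all genes tested, in pericyte-like nuclei 4 and 3 against 54.1% and 70.8%, and in fibroblast-like nuclei 5 and 5 against 73.3% and 88.7%. In macrophage-like nuclei 3 and 3 did, against 69% and 83.3%, and in T-cell-like nuclei 4 and 3, against 60.2% and 79.5%. These gaps between the lipogenic genes and all genes were not tested, and in endothelial-like nuclei of the control library 2 of 10 was close to the 24.1%. In endothelial-like nuclei, *Scd1* had a CPM of 1993 and 3147, which is 208% (200 to 218) and 99.9% of its adipocyte-like level, and *Elovl5* 151% (119 to 190) and 199.8% of it, while the markers ranged from 32.5% to 128% and from 28.7% to 71.9%. *Acly*, *Fasn* and *Me1* also lay above all markers in fibroblast-like nuclei of both libraries, and *Fasn* in pericyte-like nuclei of both. With a minimum of 1000 UMIs per nucleus, the number of lipogenic genes above all markers in the control library was 1 in endothelial- and macrophage-like nuclei (*Scd1*, against 18.8% and 60% of all genes), 1 in T-cell-like nuclei (*Elovl5*, against 51.1%), 2 in pericyte-like nuclei (against 38.9%) and 5 in fibroblast-like nuclei (against 68%). *Mlxipl* stood at 33.5% and 33.9% in endothelial-like nuclei, within the range of the markers.

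Of the classes compared, the unnamed clusters held the highest *Scd1* levels. Cluster 6, with a median mitochondrial share of 34.5% and 44.5%, had an *Scd1* CPM of 4628 and 9632 and a *Fasn* CPM of 446 and 1405. Cluster 11, led by *Cadm2*, *Cdh19* and *Kcna1*, had an *Scd1* CPM of 2598 and 10859 and a *Fasn* CPM of 381 and 2562, with 71 and 252 nuclei. Both genes were above all 12 adipocyte markers in cluster 11 of both libraries, and *Scd1* was in cluster 6 of both, where 26.9% and 30.9% of all genes in cluster 11 and 9.84% and 9.4% in cluster 6 were.

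**Figure D5:**
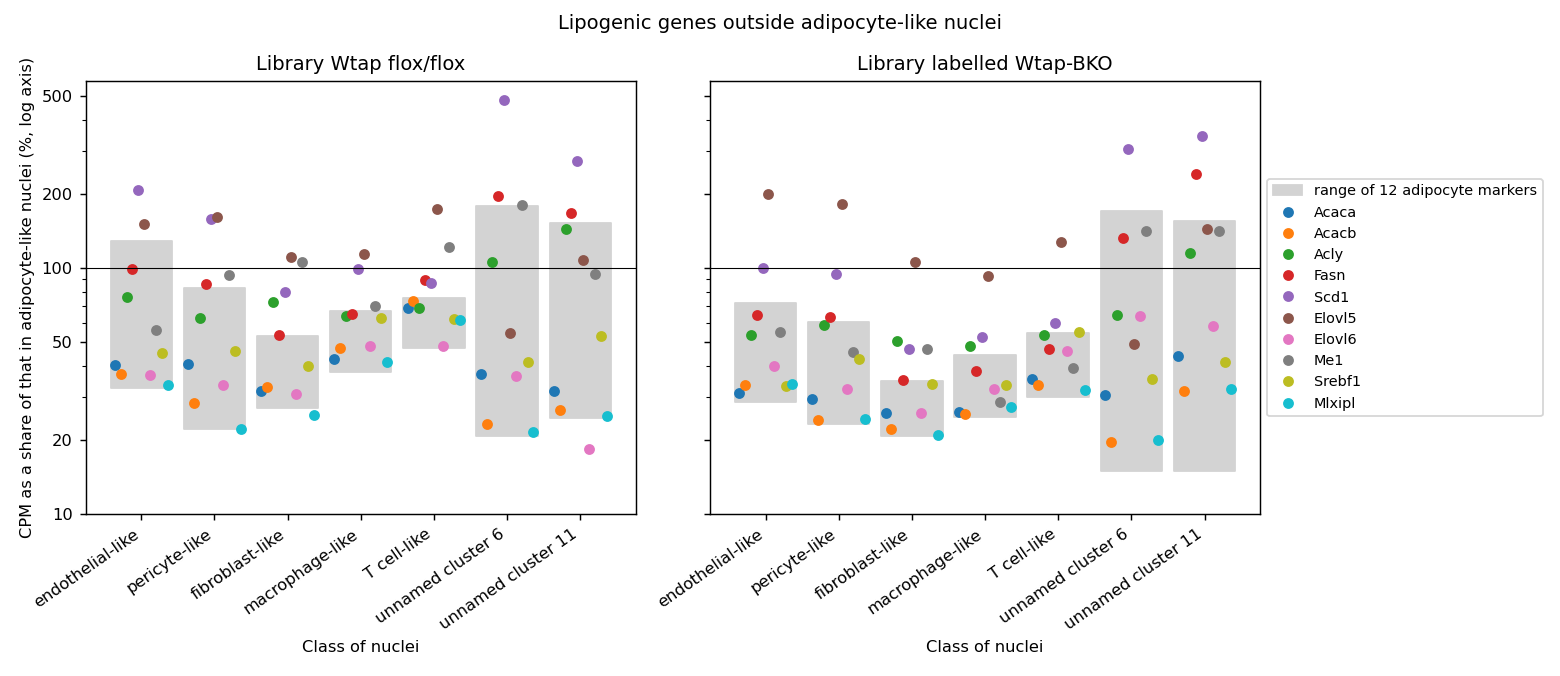
CPM of each lipogenic gene (colored points) in other classes of nuclei as a percentage of its CPM in adipocyte-like nuclei of the same library, on a log axis, with the range of the 12 adipocyte markers as grey boxes and 100% as a line. *Scd1* stands at 208% in endothelial-like nuclei of the control library and at 345% in unnamed cluster 11 of the library labelled *Wtap*-BKO, above the grey boxes.

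Differences between the libraries were also measured outside adipocyte-like nuclei. In the 5 named classes above, *Fasn* was higher in the library labelled *Wtap*-BKO in all 5, with log2 differences from 1.29 in T-cell-like to 1.78 in pericyte-like nuclei, as was *Acaca*, from 0.51 in T-cell-like to 1.17 in fibroblast-like nuclei. *Scd1* ranged from 0.66 in endothelial-like to 1.18 in T-cell-like nuclei, and the intervals of these 3 genes lay above 0 in all 5 classes. *Srebf1* ranged from 0.56 in macrophage-like to 1.37 in pericyte-like nuclei, with the interval above 0 in 4 of 5. *Mlxipl* and *Elovl6* were lower in all 5, from -1.15 to -0.07 and from -0.77 to -0.07. For *Mlxipl* the interval lay below 0 in macrophage-, T-cell- and fibroblast-like nuclei, and for *Elovl6* only in macrophage-like nuclei. The adipocyte markers in these classes had median log2 differences from -0.60 in T-cell-like to 0.03 in pericyte-like nuclei. Among nuclei of these classes with up to 5% mitochondrial UMIs, *Fasn*, from 1.06 to 1.43, and *Scd1*, from 0.56 to 1.26, kept intervals above 0 in all 5. *Acaca* then ranged from 0.08 to 0.84, with the interval above 0 only in fibroblast- and pericyte-like nuclei, and it was 0.14 (-0.22 to 0.49) in endothelial-like nuclei. *Srebf1* had its interval above 0 in 1 of 5, and *Mlxipl*, *Acacb* and *Elovl6* had theirs below 0 in 5, 4 and 3 of 5. The median of the 10 genes was then 0.33 in endothelial-like, 0.01 in macrophage-like, 0.04 in T-cell-like, -0.09 in fibroblast-like and 0.57 in pericyte-like nuclei, against 1.28 in adipocyte-like nuclei. Medians of the adipocyte markers in the 5 classes then ranged from -0.92 to -0.20. How far free RNA from adipocytes sets the levels in other classes was not tested.

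Other genes of the pathway were counted by role in adipocyte-like nuclei, against the same background of 24.9% higher and 12.6% lower. For NADPH and citrate supply, 4 of 13 genes were at least 1.5-fold higher. *Me2*, a mitochondrial malic enzyme gene, was the 1 that was at least 1.5-fold lower, on 37 and 26 UMIs, at -0.63 (-1.42 to 0.13), an interval that spans 0. *Slc25a1*, the mitochondrial citrate carrier that exports the substrate of *Acly*, had a CPM of 49.2 and 118, a log2 difference of 1.26 (1.09 to 1.44), and in cluster 8 it stood 1.997 (1.53 to 2.43) and 1.43 (1.23 to 1.63) above the other adipocyte-like nuclei. The pentose phosphate genes *Tkt* and *Taldo1* were at 0.71 (0.64 to 0.77) and 0.63 (0.51 to 0.75), *G6pdx*, the entry enzyme of that route, at -0.38 (-0.76 to -0.01), and *Me3*, also a mitochondrial malic enzyme gene, at -0.55 (-0.67 to -0.43), the last 2 both short of 1.5-fold lower. Of the other elongases, desaturases and elongation cycle genes, 11 of 16 had at least 20 UMIs, and 3 were higher and 0 lower. *Fads3* was at 2.28 (1.82 to 2.78) on 45 and 239 UMIs, and *Hacd2*, a dehydratase of the elongation cycle, at -0.27 (-0.38 to -0.17).

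Of 5 genes of SREBP processing, 2 were higher and 0 lower. *Insig1*, which holds the SREBP escort in the endoplasmic reticulum and is itself an SREBP target, had a CPM of 28.9 and 102, a log2 difference of 1.82 (1.60 to 2.04). *Insig2* was at 0.61 (0.25 to 0.97), the escort gene *Scap* at 0.28 (0.06 to 0.50), and the proteases *Mbtps1* and *Mbtps2* at -0.23 (-0.42 to -0.04) and -0.48 (-0.71 to -0.25). Among partners and regulators, 15 of 16 had enough UMIs, with 3 higher and 3 lower. *Thrsp*, the lipogenic protein Spot 14, had a CPM of 424 and 930, a log2 difference of 1.13 (1.07 to 1.19). *Stk11*, the kinase LKB1 upstream of AMPK, was at 1.58 (1.503 to 1.66), and *Prkag2*, a regulatory subunit of AMPK, was at -1.69 (-1.74 to -1.65) with a CPM of 2287 and 707. AMPK phosphorylates and restrains the acetyl-CoA carboxylases.

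Genes of the sterol branch, driven by SREBP-2, were also counted. Of 9 genes reported here with at least 20 UMIs, 2 were at least 1.5-fold higher, 0 lower and 7 between, against 24.9% higher and 12.6% lower of all genes. The 2 were *Mvd* and *Sqle*, the latter on 7 and 14 UMIs, at 0.88 (-0.53 to 2.43), and named after its values were seen. *Srebf2* was at -0.01 (-0.26 to 0.25), *Hmgcs1*, an early enzyme of sterol synthesis, at -0.34 (-0.51 to -0.18), and *Fdft1*, squalene synthase, at -0.17 (-0.33 to -0.02). The mevalonate pathway genes *Mvd* and *Idi1* were sparse, with 24 and 43 UMIs and a log2 difference of 0.72 (-0.04 to 1.502) for *Mvd*, and with 20 and 32 UMIs and 0.55 (-0.30 to 1.44) for *Idi1*. The intervals of *Mvd*, *Sqle* and *Idi1* all span 0.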

How the data were processed

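The deposited matrices held raw UMI counts per gene and nucleus, which the authors had made with Cell Ranger 5.0.0 per the file headers, on mm10 per the submitters' notes. The treatment of intronic reads is not given in the sources used here. Nuclei had at least 500 UMIs. With Seurat 5.3.0 in R 4.3.3, canonical correlation analysis joined the libraries on 2000 variable features, with 72 lipogenic and related genes left out, and nuclei were clustered on 20 PCs at a resolution of 0.5. Clusters were named from at least 3 markers with 2 times the CPM of the other nuclei. Adipocyte-like clusters needed 50% of 12 markers at 1.5 times. The B-cell-like cluster was too small to compare. Scrublet in scanpy 1.11.5 called 3 and 0 doublets and was not used, and the 721 and 616 nuclei with the highest scores were removed only as an alternative.

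UMIs were summed per library and class. Intervals are exact Poisson (CPM), conditional (ratios) and Clopper-Pearson (shares), computed with scipy 1.17.1 and tested on simulated data. Thinning was to 1000 UMIs. A library at 0 UMIs was set to a floor of 3. All 10 lipogenic genes are named, and of each other list the 3 highest and 3 lowest ratios among genes with at least 50 UMIs could be named. The genes and lists were chosen with earlier results of these data known. Alternatives changed the UMI and mitochondrial limits, scaling, PCs, resolution, integration, doublets and cluster weights. Some genes of the sterol branch are not reported here, and its count covers the others.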

Additional observations from a re-analysis of the deposited data

Results flagged for a closer look

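Some genes had opposite differences between the libraries in different nuclei, by intervals on opposite sides of 0. The contrasts between nuclei were not tested, since each genotype had 1 library. *Acacb* had a log2 difference of -0.33 (-0.52 to -0.14) in T-cell-like nuclei, with 119 and 742 nuclei, against 0.81 in adipocyte-like nuclei. *Elovl6* had a log2 difference of 0.61 (0.19 to 1.04) in unnamed cluster 6 and 1.46 (0.55 to 2.51) in unnamed cluster 11, the latter on 11 and 86 UMIs, against -0.19 in adipocyte-like nuclei. In adipocyte-like cluster 8, *Elovl6* was at 0.34 (0.10 to 0.59).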

How the results depend on the processing

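Each ratio in adipocyte-like nuclei was recomputed under 13 alternatives, 11 planned and 2 (without cluster 8 and without cluster 2) added after the data were seen. *Acaca*, *Acacb*, *Fasn*, *Scd1* and *Srebf1* stayed at least 1.5-fold higher in all 13, *Me1* in 12, *Acly* in 10 and *Elovl5* in 8, and *Mlxipl* stayed lower in all 13. The log2 difference of *Fasn* ranged from 1.82 with clusters weighted equally to 2.45, and that of *Acaca* from 1.08 with the same weights to 1.99, the upper values once nuclei above 5% mitochondrial UMIs were dropped. *Elovl6* turned to 0.13 under that removal. The median of the 10 genes, 0.92, was 1.28 under it, 1.13 with nuclei over 10% removed and 0.70 without cluster 8, where the number at least 1.5-fold higher was 5. A denominator free of mitochondrial UMIs moved the median of all genes from 0.07 to 0.18. The number of lipogenic genes above all adipocyte markers in the control library moved with a minimum of 1000 UMIs to 1 in endothelial-, macrophage- and T-cell-like nuclei and 2 in pericyte-like nuclei. In fibroblast-like nuclei of the library labelled *Wtap*-BKO it was 3 with nuclei above 5% dropped. The cause was not tested. No paired analysis was possible because each genotype had 1 library. Genotype, library preparation and mice cannot be told apart.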

Other observations

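Genes outside the lipogenic lists were ranked by how closely their log2(CPM + 1) over the 5 adipocyte-like clusters, centred within each library, followed the mean of the 10 lipogenic genes. Among 3122 genes, the closest were *Cyb5a* (Pearson r 0.985 over 10 points), *Tmem87b* (0.983), *Irf4* (0.980), *Amotl2* (0.978) and *Ppm1a* (0.975). The 10 points come from 2 libraries, share their depth and are dominated by cluster 8, so these values are a description with no test. Against the mean of the other 9 lipogenic genes, r was 0.963 for *Acly*, 0.944 for *Fasn*, 0.925 for *Acaca* and 0.907 for *Srebf1*, 0.568 for *Mlxipl* and -0.067 for *Acacb*.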
